A study of Homo sapiens with 10 samples.

Results

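The genes described here encode 4 families of splicing factors. They are the transcripts listed in both the RNA-Seq and the Ribo-Seq table whose symbol begins with SRSF (SR genes, 10 members), HNRNP (hnRNP genes, 18 members), SNRP (snRNP genes, 11 members) or SF3A or SF3B (SF3 genes, 8 members). In all there were 47 members among 11258 transcripts in both tables. 1 further hnRNP gene was left out by the selection rule, and SRSF12 was in the RNA table alone, with 0.01 to 0.05 FPKM. All 47 members were among the 7015 transcripts that were tested, which means that they reached at least 5 FPKM in 1 or more libraries of each assay.

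The cells were BJ cells, human primary foreskin-derived fibroblasts immortalized by expression of hTERT, the catalytic subunit of telomerase. The groups were control cells and cells given Nutlin-3a for 2, 4, 6 or 19 h. Nutlin-3a is an inhibitor of MDM2, the ligase that holds p53 down, and the design asks how transcript levels and translation move as p53 is activated. Every group shared the cell line, the hTERT transgene and the same serum-containing medium, and the controls were proliferating cells. Poly(A) RNA (RNA-Seq) and ribosome-protected fragments (Ribo-Seq) gave 1 library each per group, 10 libraries in all, so no value below has a replicate check and no test between groups could be made. The error given with a change is therefore the counting error of the reads alone.

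Splicing removes introns in the spliceosome, a machine assembled from small nuclear ribonucleoproteins (snRNPs). Proteins of the Sm ring hold the snRNP core together, SF3A and SF3B proteins belong to the U2 snRNP that recognizes the branch site, SR proteins bind exonic enhancers and recruit the machine, and hnRNP proteins coat nascent transcripts and often oppose exon use. Many SR and hnRNP genes control their own transcripts through exons that lead to decay of the message.

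Read totals recovered from the steps of the deposited values were 23845555 to 27554281 for the RNA libraries and 7744901 to 14460728 for the Ribo-Seq libraries. These are the totals by which the values were scaled, not all reads sequenced. As a check of the treatment, CDKN1A, the p53 target that encodes the cell-cycle inhibitor p21, had 68.6 FPKM RNA in the control and 1316 FPKM at 19 h, and MDM2, itself a p53 target, had 14.9 and 259 FPKM RNA. All 8 fibroblast markers examined lay between 55.5 and 4337 FPKM in every RNA library. Of 11 markers of epithelial, endothelial and blood cells, 5 were listed and the highest value was 0.509 FPKM. The study describes a difference between sequencing runs and set each condition against a control of its own run. Its sample list holds the 6 h and 19 h libraries beside a control, while the runs of the 2 h and 4 h libraries are not given in the sources used here, and the labels do not say which control this one is.

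The RNA level and the ribosome density are FPKM, fragments normalised for transcript length and library size. TE, translation efficiency, is density divided by RNA. A change is the log2 ratio of a treated library to the control, with values under 1 FPKM set to 1, minus the median of that ratio over all tested transcripts. The median removed was 0.10 or less in size except -0.19 for density at 19 h and 0.18 for TE at 4 h. A member is called lower or higher when its change passes 1.5-fold, and the words fell and rose are kept for such members. Since FPKM are shares of a library, a change in total RNA or total ribosome footprints per cell is not seen. A change in all cells and a change in a part of them cannot be told apart.

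RNA of the splicing factors passed 1.5-fold in no member at 2 h and 4 h, and fell in many members of the SR, hnRNP and snRNP families from 6 h on. At 2 h and at 4 h 0 of 47 members were called in either direction. Among all tested transcripts 2.25% were called higher and 0.143% lower at 2 h, and 4.23% higher and 2.72% lower at 4 h. Family medians lay between -0.19 and 0.03 on the log2 scale at both times, with the SR genes lowest at 4 h. At 6 h 15 members fell (31.9% of 47, against 11.5% of all tested transcripts) and 0 rose (against 5.76%). At 19 h 24 members fell (51.1%, against 12.7%) and 1 rose (against 9.14%). Below the median of all tested transcripts lay 40 members at 6 h and 42 at 19 h, where the background is 50% by construction.

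The families differed in how many members moved. At 19 h 4 of 10 SR genes, 11 of 18 hnRNP genes, 8 of 11 snRNP genes and 1 of 8 SF3 genes fell, and the riser was an snRNP gene, SNRPN. The median RNA changes at 19 h were -0.51 for SR, -0.68 for hnRNP, -0.73 for snRNP and -0.16 for SF3 genes, against 0 for all tested transcripts. At 6 h they were -0.48, -0.48, -0.51 and -0.30 in the same order. The difference between families was not tested, since members are not replicates. In summed FPKM the hnRNP genes went from 2441 in the control to 1451 at 19 h, the SR genes from 756 to 482, the snRNP genes from 508 to 295, and the SF3 genes from 506 to 435.

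**Figure D1:**
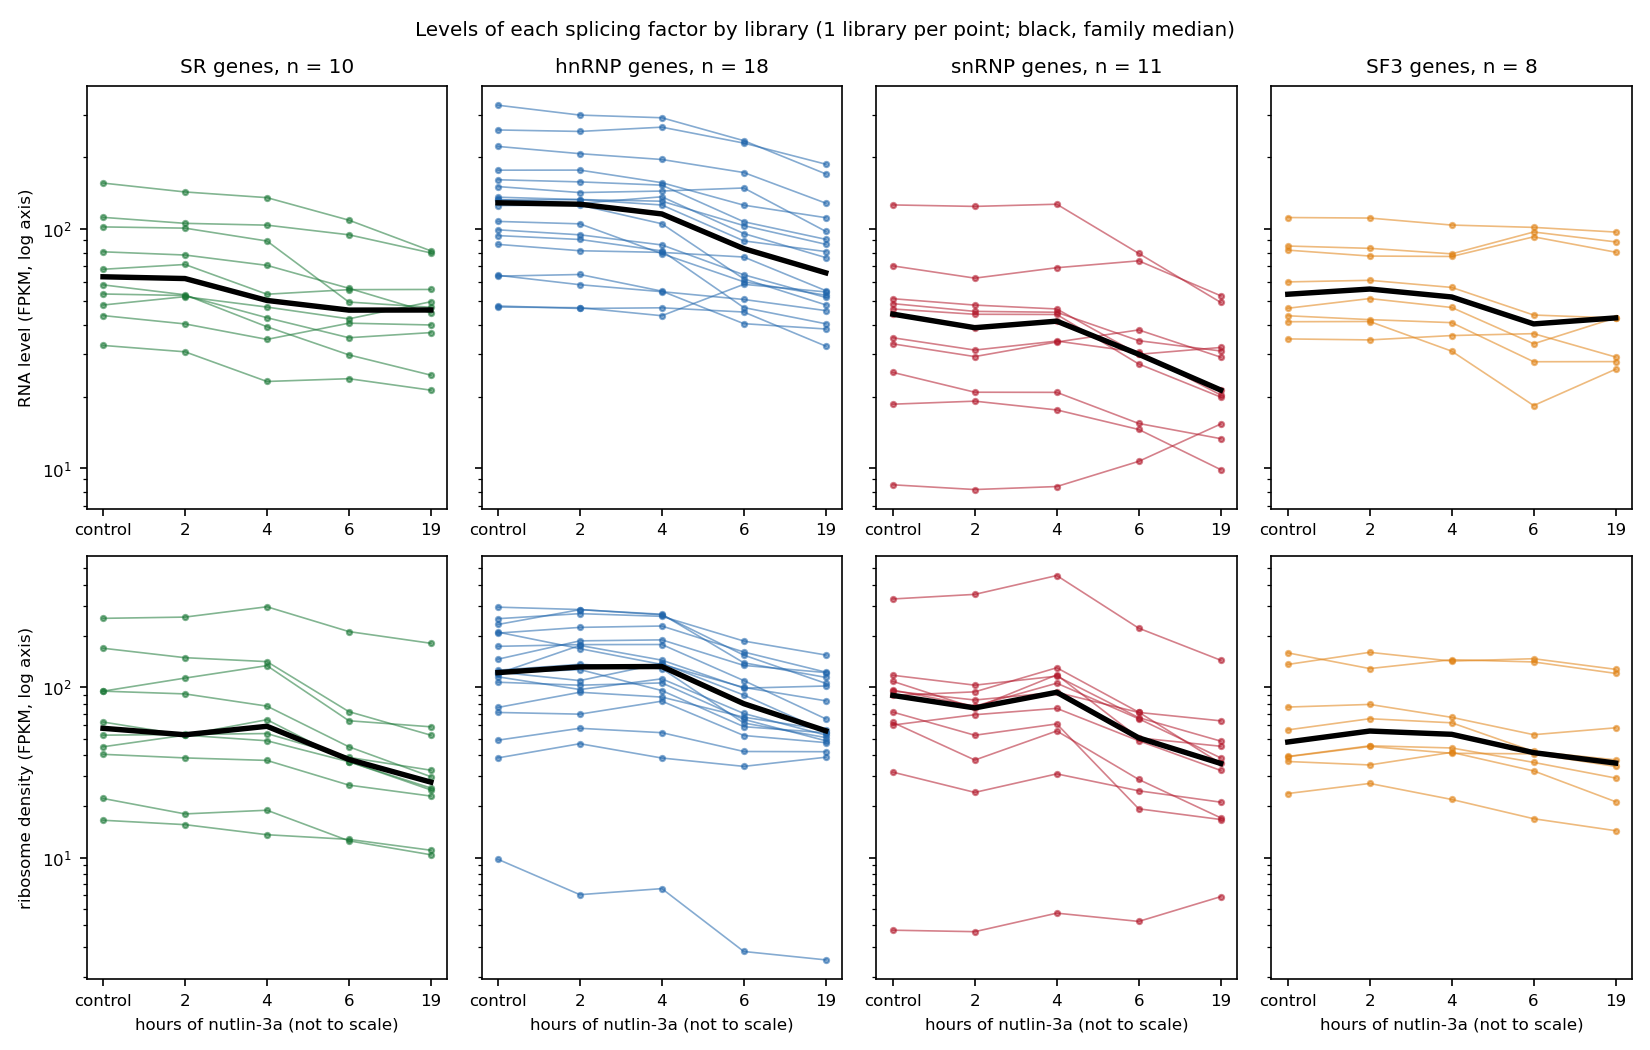
RNA level (top row) and ribosome density (bottom row) of each member in FPKM on log axes, by library from control to 19 h of Nutlin-3a. Thin lines are members and the black line is the family median. The hnRNP median RNA level went from 129 FPKM in the control to 65.8 FPKM at 19 h, while the SF3 median went from 53.5 to 42.6 FPKM.

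**Figure D2:**
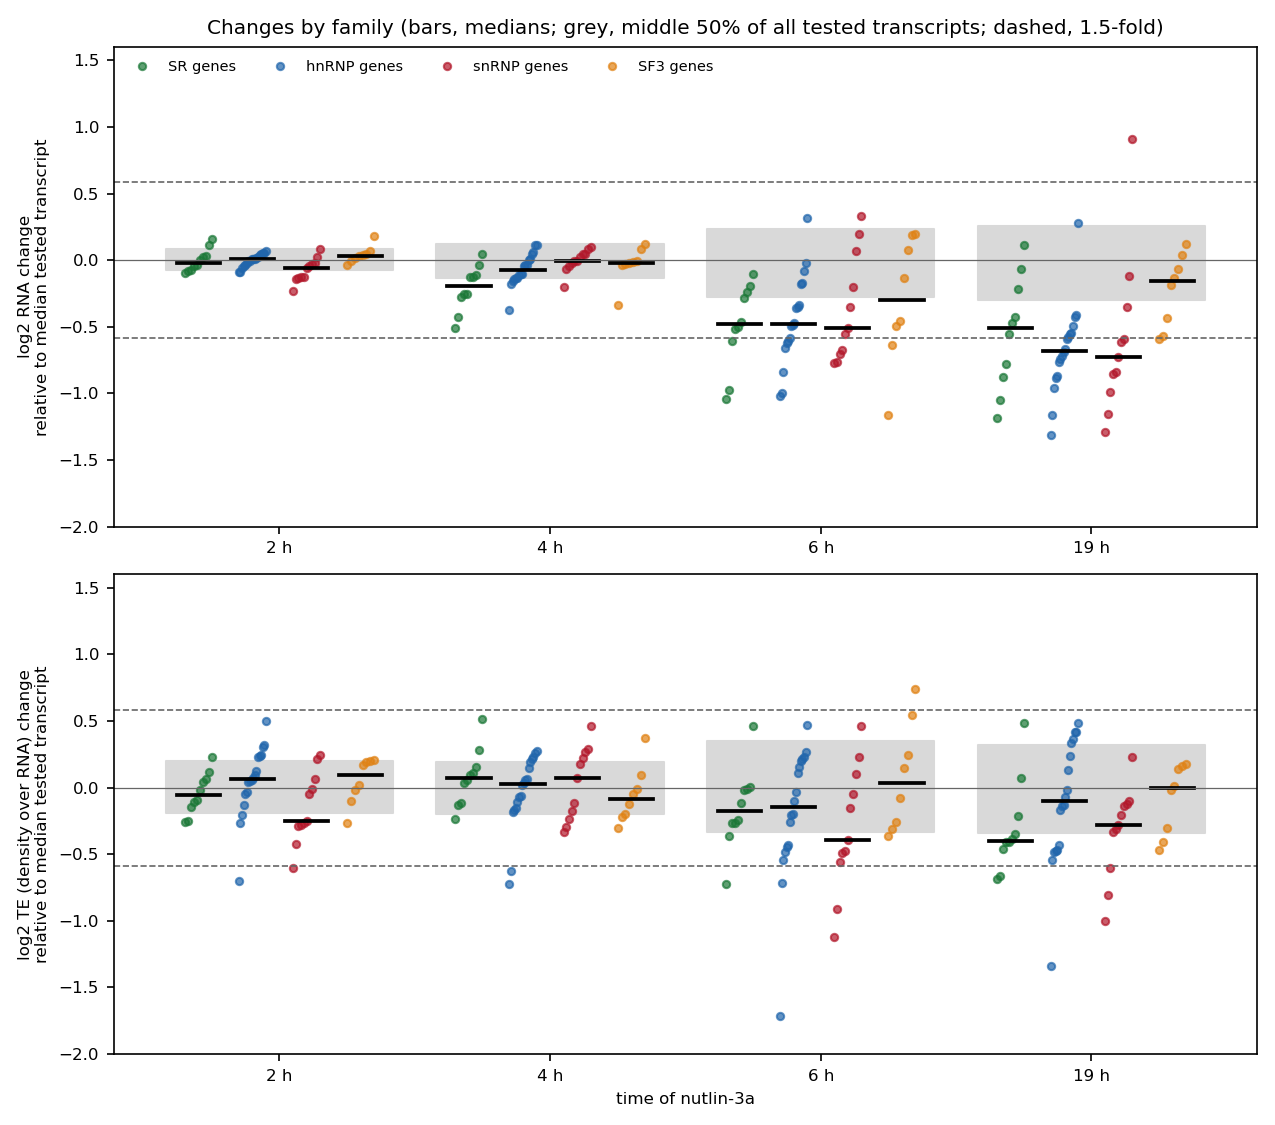
Log2 changes of RNA (top) and TE (bottom) against the control, relative to the median tested transcript. Points are members, black bars family medians, grey bands the middle 50% of all tested transcripts, and dashed lines mark 1.5-fold. SR, hnRNP and snRNP medians lie below the grey band for RNA at 6 h and 19 h, as does the SF3 median at 6 h (-0.30), while the SF3 median at 19 h (-0.16) lies inside the band. The SR median for RNA at 4 h (-0.19) also lies below the band. For TE the SR median at 19 h (-0.40) and the snRNP medians at 2 h (-0.25) and 6 h (-0.395) lie below the band.

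Among the SR genes, SRSF3, SRSF7, SRSF2 and SRSF1 fell at 19 h. SRSF3, the smallest SR protein and a splicing and export factor, had the highest control RNA level of its family. Its RNA level was 156 FPKM in the control and 143, 136, 109 and 81.3 FPKM at 2, 4, 6 and 19 h, and its density was 169.6, 149, 142, 72 and 52.4 FPKM in the same libraries. Both assays were lowest at 19 h, and the centred RNA change there was -0.87 ± 0.027 (log2, counting SE). SRSF7, a zinc-knuckle SR protein, had 58.6, 53.3, 39.2, 29.9 and 24.6 FPKM RNA from control to 19 h. It was already at -0.51 at 4 h and reached -1.19 ± 0.044 at 19 h, the largest fall in RNA of the family. Its density was 94.9, 91.5, 77.6, 44.8 and 29.9 FPKM.

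SRSF2, also known as SC35 and used as a marker of nuclear speckles, kept its RNA near the control for 2 h and fell sharply between 4 and 6 h. Its RNA levels were 102, 101, 89.4, 49.7 and 47.2 FPKM, with changes of -1.04 at 6 h and -1.05 ± 0.030 at 19 h. Ribosome density on SRSF2 went the other way at first, with 94.9, 113, 134, 63.6 and 58.6 FPKM. Its TE was thus above the median of all tested transcripts at every time, at 0.23, 0.52, 0.47 and 0.49 ± 0.056, each short of 1.5-fold. SRSF5 showed the reverse pattern. Its RNA level was 48.3, 52.3, 47.3, 42.2 and 49.8 FPKM, while its density was 52.4, 52.9, 53.5, 38.8 and 32.6 FPKM. The TE change of SRSF5 was -0.66 ± 0.073 at 19 h, past 1.5-fold. SRSF1, SRSF4, SRSF6, SRSF9, SRSF10 and SRSF11 had RNA changes between -0.78 (SRSF1) and -0.06 (SRSF11) at 19 h.

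The hnRNP genes had the highest summed RNA level of the 4 families, and 17 of 18 members lay below the median of all tested transcripts at 19 h. HNRNPA2B1, which binds and sorts many mRNAs, had the highest control level of all 47 members. Its RNA level was 331, 301, 293, 235 and 171 FPKM and its density 296, 286, 266, 154 and 106 FPKM from control to 19 h. RNA and density were ordered alike, highest in the control and lowest at 19 h, with an RNA change of -0.89 ± 0.014 and a TE change of -0.47 ± 0.033 at 19 h. HNRNPAB, an RNA-binding protein of the A/B type, showed the largest RNA fall of all members. It had 126, 126, 106, 62.1 and 48.3 FPKM RNA, a change of -1.31 ± 0.036 at 19 h. Density on HNRNPAB was 234, 286, 269, 139 and 114 FPKM, so that its TE change of 0.42 ± 0.055 was positive while its RNA fell.

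HNRNPD (AUF1, which binds AU-rich elements) and HNRNPF (which binds G-rich runs) fell in RNA and density by similar amounts. HNRNPD had 94.2, 90.7, 81.3, 47.1 and 40.3 FPKM RNA and 126, 136, 129, 61.7 and 50.7 FPKM density. HNRNPF had 108, 105, 79.1, 60.3 and 53 FPKM RNA and 121, 127, 95.7, 58.7 and 54.1 FPKM density. Their TE changes at 19 h, -0.02 ± 0.056 and -0.07 ± 0.056, lay within 2 counting SE of the median of all tested transcripts. From 6 h to 19 h the centred RNA changes of the 18 hnRNP genes moved by a median of -0.21. The moves lay between -0.54 (HNRNPC) and -0.0094 (HNRNPA0). The median move was -0.39 for snRNP, -0.05 for SR and 0.01 for SF3 genes.

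HNRNPH2, chosen after its values were seen, was the hnRNP gene above the median at 19 h. Its RNA was 47.3, 47, 43.5, 58.9 and 54.8 FPKM, a change of 0.28 ± 0.039 at 19 h. HNRNPH1, a closely related G-run binder, had 133, 129, 137, 96.1 and 76.2 FPKM RNA and 174, 178, 178, 109.5 and 65.3 FPKM density. The ratio of HNRNPH1 to HNRNPH2 RNA was 2.82 in the control (95% counting interval 2.69 to 2.95) and 1.39 at 19 h (1.33 to 1.46). In density the ratio went from 4.52 (4.22 to 4.84) to 1.68 (1.53 to 1.85). Reads that the 2 genes share were not counted for either one, since only uniquely mapped reads were kept.

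In the snRNP family SNRPB and SNRPN moved in opposite directions, a pair chosen after its values were seen. SNRPB encodes the SmB and SmB' proteins of the Sm ring, and SNRPN encodes SmN, a related protein that can take their place in the ring. SNRPB RNA was 127, 125, 127, 79.3 and 49.5 FPKM, a change of -1.29 ± 0.046 at 19 h. SNRPN RNA was 8.55, 8.17, 8.4, 10.7 and 15.3 FPKM, a change of 0.91 ± 0.090. SNRPB thus fell while SNRPN rose, and the ratio of SNRPB to SNRPN RNA was 14.8 in the control (95% counting interval 13.3 to 16.4), 7.41 at 6 h (6.76 to 8.12) and 3.23 at 19 h (2.95 to 3.52). Densities were 330.2, 351, 453, 222 and 144 FPKM for SNRPB and 3.75, 3.68, 4.72, 4.22 and 5.9 FPKM for SNRPN, whose Ribo-Seq reads were few, 84 in the control and 87 at 19 h. SNRPN lies on a transcript that also holds the SNURF frame, and each gene was counted on 1 transcript, so reads of that frame cannot be told apart from its own.

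The other Sm ring genes among the members also fell at 19 h. SNRPD1 (SmD1) had 46.5, 44.2, 44.1, 27.4 and 19.9 FPKM RNA and 71.5, 52.3, 61, 19.3 and 16.7 FPKM density. Its density at 19 h was the lowest relative to control of any member, a centred change of -1.90, made of an RNA change of -1.16 ± 0.061 and a TE change of -0.80 ± 0.12. SNRPE (SmE) had 35.2, 31.3, 34.1, 30.6 and 20.3 FPKM RNA and 62.2, 37.4, 55.4, 28.8 and 17.1 FPKM density. SNRPD3 (SmD3) had 48.9, 45.4, 45, 34.2 and 31 FPKM RNA and 96.4, 77.5, 106, 65.4 and 38.5 FPKM density. RNA of these genes changed by -0.73 ± 0.083 (SNRPE) and -0.59 ± 0.050 (SNRPD3) at 19 h. With the 2 h library as baseline both lost the call, at -0.57 and -0.50, and SNRPD3 lost it also with 1 FPKM added and with the length trend removed, each at -0.58. In all, 6 of the 7 Sm ring genes among the members fell at 19 h and SNRPN rose. SNRPD2, another Sm ring gene, was not among the members, so the ring was not covered in full. Of the 4 members that belong to the U1 or U2 snRNP alone, SNRPA1 and SNRPA fell, while SNRPC, a U1 snRNP protein, and SNRPB2 were at -0.35 and -0.12. SNRPA1, the U2 A' protein, had 44.2, 38.8, 41.3, 30 and 21.3 FPKM RNA, and 89.6, 94.1, 130.2, 71.4 and 35.7 FPKM density.

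The SF3 genes stood closest to the median of all tested transcripts. SF3B2 had the highest control level, with 112, 112, 104, 102 and 97.4 FPKM RNA and 136, 160.5, 143, 147 and 128 FPKM density. SF3B1, the subunit that contacts the branch site region and is often mutated in cancers, had 85.2, 83.3, 79, 97.5 and 88.7 FPKM RNA and 39.3, 45.4, 44, 36.2 and 29.3 FPKM density. Neither gene passed 1.5-fold in RNA or TE at any time. SF3A2 was the one SF3 gene called at 19 h, and its low point was earlier. The call at 19 h was lost with 1 FPKM added in place of the floor and with the length trend removed, each at -0.58. Its RNA level was 41.1, 41.2, 30.9, 18.3 and 26 FPKM, a change of -1.16 ± 0.062 at 6 h and -0.59 ± 0.056 at 19 h. Density on SF3A2 was 56.2, 65.4, 61.9, 42 and 37.5 FPKM, and its TE rose at 6 h, by 0.74 ± 0.093. SF3A1, another SF3A subunit chosen after its values were seen, also had its lowest RNA level at 6 h, with RNA of 46.8, 51.4, 47.1, 33.2 and 42.7 FPKM.

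SF3B3, a large scaffold subunit, had 43.5, 41.9, 40.7, 28 and 28 FPKM RNA, and its changes were -0.64 at 6 h and -0.57 ± 0.026 at 19 h, on either side of the fold. At 19 h SF3B3 was called without centring and without a filter, at -0.64, and with the length trend removed, at -0.59. SF3B4 had 60.3, 61.2, 57.2, 43.8 and 42.6 FPKM RNA, a change of -0.43 ± 0.040 at 19 h. Density was 23.8, 27.3, 22, 16.9 and 14.4 FPKM on SF3B3 and 76.6, 79.4, 66.6, 52.7 and 57.8 FPKM on SF3B4. SF3A3 and SF3B5, a subunit of each complex, had RNA changes of -0.18 ± 0.038 and 0.04 ± 0.053 at 19 h. SF3A3 had 34.8, 34.5, 36, 36.6 and 29.3 FPKM RNA and 36.7, 35, 41.5, 32.3 and 21.3 FPKM density, with TE at -0.47 ± 0.079 at 19 h. SF3B5 had 81.9, 77.3, 77, 93.1 and 80.3 FPKM RNA and 159, 129, 145, 141 and 121 FPKM density, with TE at -0.30 ± 0.086. Both had their lowest density at 19 h.

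**Figure D3:**
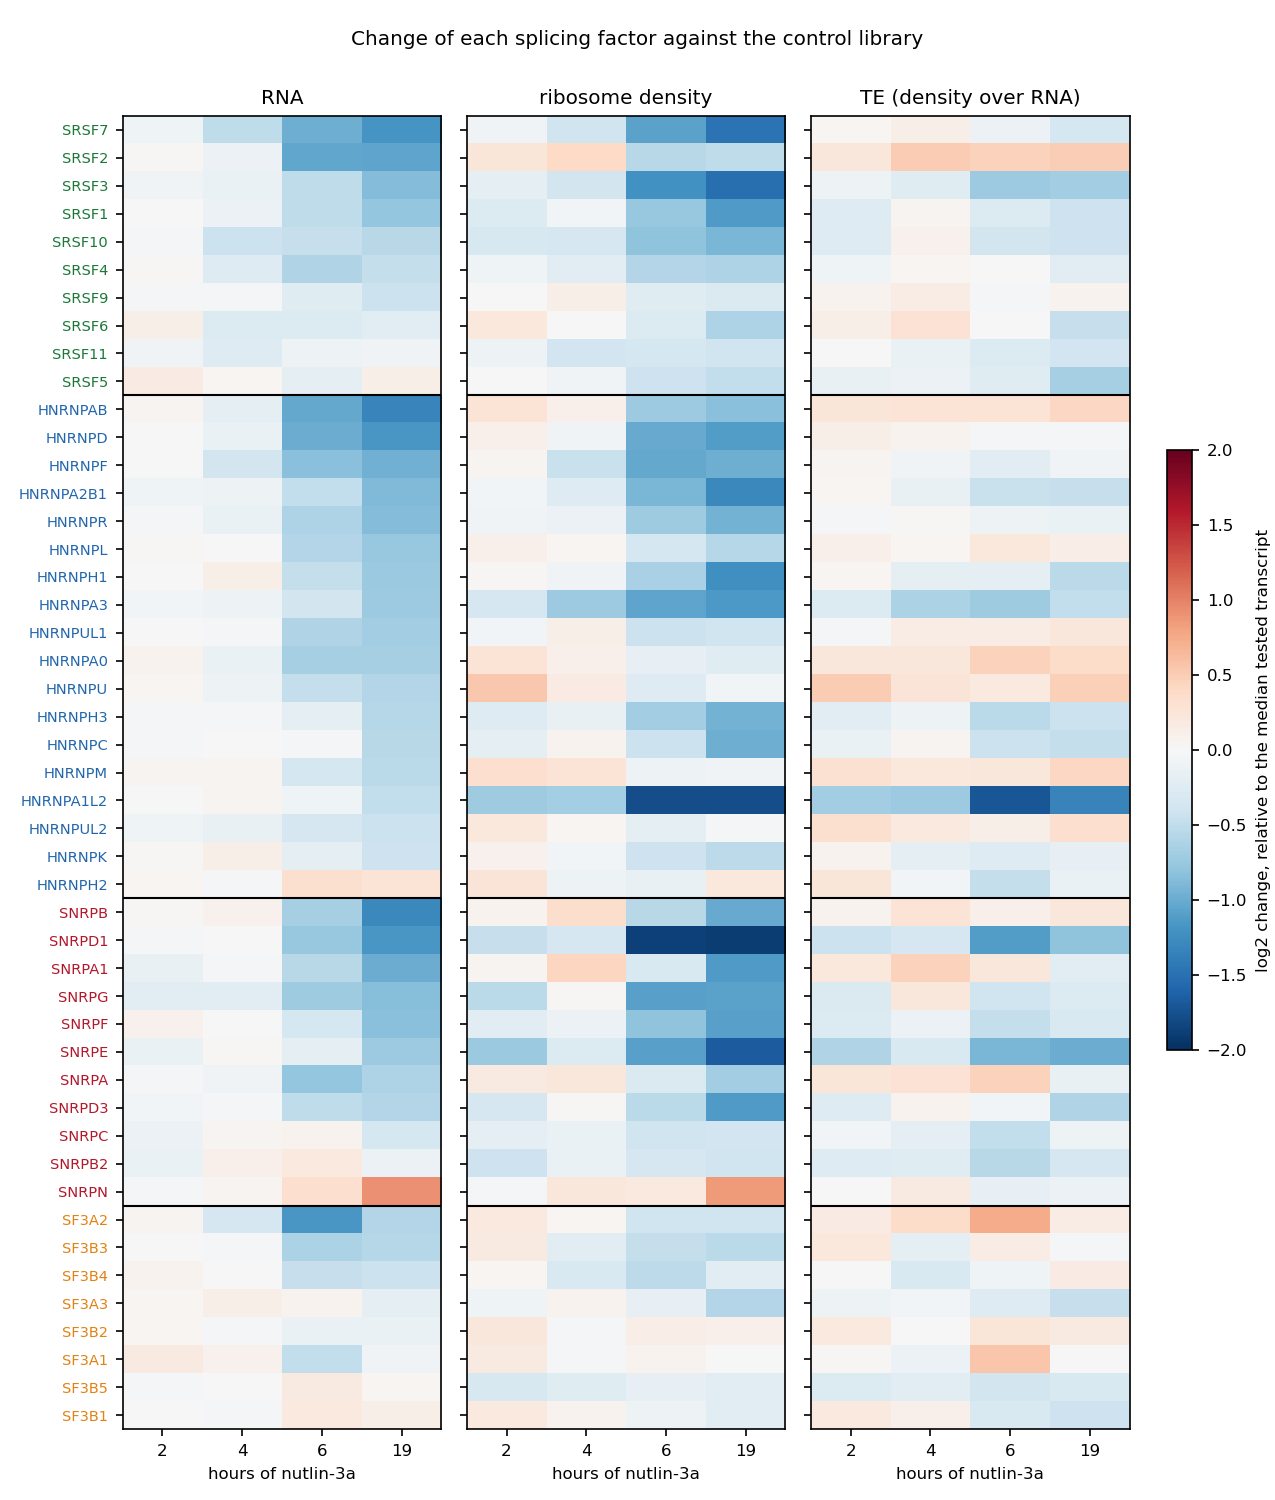
Log2 change of each of the 47 members against the control at 2, 4, 6 and 19 h, relative to the median tested transcript, for RNA, ribosome density and TE. Rows are grouped by family (black lines) and ordered by RNA change at 19 h, and blue is lower. RNA and density darken together at 6 h and 19 h, and SNRPN is the red row, at 0.91 for RNA and 0.85 for density at 19 h.

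A cut-off that widens with the spread of transcripts of similar level, as the study used, set the bar for members at 1.89-fold to 3.23-fold at 19 h and called fewer of them. By it 5 members fell in RNA at 19 h, namely HNRNPAB, SNRPB, HNRNPD, SRSF2 and HNRNPF, against 4.48% of all tested transcripts. At 6 h 6 fell, namely SF3A2, SRSF2, HNRNPAB, HNRNPD, SRSF7 and HNRNPF, against 4.85%.

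Promoter sequences were examined for letters that the members share. RefSeq starts (GRCh38.p14) were found for 44 members, 63 starts in all. The 80 bases before the start are shown for the member of each family with the largest RNA fall at 19 h among those with a single RefSeq start. Capitals mark the CCAAT box on either strand, which is a common element of promoters of growth-related genes and the binding site of NF-Y.
SRSF3, chr6:36594282-36594361, plus strand: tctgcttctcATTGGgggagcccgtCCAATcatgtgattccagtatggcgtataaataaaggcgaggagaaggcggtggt
HNRNPAB, chr5:178204453-178204532, plus strand: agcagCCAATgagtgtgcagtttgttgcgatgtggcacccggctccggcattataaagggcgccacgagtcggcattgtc
SNRPB, chr20:2470790-2470869, minus strand: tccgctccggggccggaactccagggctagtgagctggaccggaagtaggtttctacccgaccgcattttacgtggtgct
SF3A2, chr19:2236744-2236823, plus strand: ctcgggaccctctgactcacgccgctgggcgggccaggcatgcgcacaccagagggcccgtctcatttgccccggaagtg

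The CCAAT letters stood in the windows of SRSF3 and HNRNPAB and not in those of SNRPB and SF3A2. Over the full 250 bases before a start, CCAAT was found on either strand for 20 of 44 members (45.5% of genes and 34.9% of starts). Among all tested genes the shares were 42% of genes and 33.4% of starts, and among all RefSeq genes 37% and 32%. By family, 14 of 18 hnRNP genes held CCAAT (57.1% of their starts) and 4 of 10 snRNP genes, against 1 of 9 SR genes and 1 of 7 SF3 genes. GCGGGAA, the core of many E2F sites, was found for 10 of 44 members (15.9% of starts, against 8.81% of starts of all tested genes and 5.52% of all RefSeq starts). TTTGAA, the letters of the CHR element of cell-cycle genes, was found for 3 members (6.82% of genes, against 11.3% of all tested genes and 16.1% of all RefSeq genes). Among the matched members that fell at 19 h 13 of 22 held CCAAT (45.5% of their starts), and among the others 7 of 22 (23.3% of starts). Of the 24 members that fell, 11 were hnRNP genes, the family that held CCAAT most often. This comparison did not take family into account. These letters were searched as written and on the opposite strand, and a match is no proof of binding.

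Few splicing factors were called in TE. The share called lower lay near the background at 6 h and 19 h, and the share called higher lay below it. At 2 h 2 members fell in TE and 0 rose, against 2.71% and 4.33% of all tested transcripts. At 4 h 2 fell and 0 rose, against 2.54% and 3.25%, but without centring, which removed 0.18 at that time, 0 were lower and 2 were higher (SRSF2 and SNRPA1). At 6 h 5 fell (10.6%, against 12.4%) and 1 rose (against 13.2%), and at 19 h 6 fell (12.8%, against 12.8%) and 0 rose (against 11.2%). By family, TE at 19 h fell in 3 of 11 snRNP genes (27.3%) and 2 of 10 SR genes (20%), against the same 12.8%. It fell in 1 of 18 hnRNP genes and 0 of 8 SF3 genes. Median TE changes at 19 h were -0.40 for SR, -0.10 for hnRNP, -0.28 for snRNP and -0.01 for SF3 genes. The snRNP median was -0.06 with a trend over transcript length removed and -0.10 with the 2 h library as baseline. Below the median of all tested transcripts lay 31 members at 6 h and 33 at 19 h, against 50%.

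The members whose TE fell were few. HNRNPA1L2, an intronless near-copy of another hnRNP gene, was the one member called at all 4 times, with TE changes of -0.70, -0.72, -1.72 and -1.34 ± 0.23. Its RNA was 47.8, 46.7, 47, 45.1 and 32.5 FPKM and its density 9.78, 6.06, 6.58, 2.81 and 2.51 FPKM, the last from 46 reads. Reads shared with the near-identical gene were not kept, so these values may rest on few positions where the copies differ. Where the reads fall was not examined, and the values are uncertain. SNRPE was called at 3 times, with TE changes of -0.61, -0.30, -0.91 and -0.998 ± 0.16. SNRPD1 had -0.42, -0.33, -1.12 and -0.80, and SRSF3 had -0.11, -0.24, -0.72 and -0.69 ± 0.061. HNRNPA3 was called at 4 h and 6 h, with -0.27, -0.63, -0.72 and -0.48 ± 0.050, and its RNA level was 222, 207, 196, 173 and 129 FPKM and its density 211, 169, 136, 99.9 and 83.3 FPKM. SRSF5 and SNRPD3 were called at 19 h alone, and HNRNPH1 was just inside the fold at -0.54 ± 0.057.

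With the 2 h library as the baseline in place of the control, 2 members were called lower in TE at 19 h, HNRNPA1L2 at -0.62 and SF3B1 at -0.59, of which SF3B1 was not called against the control. The other 5 lost their call, with SNRPE at -0.37, SNRPD1 at -0.36, SNRPD3 at -0.33, SRSF5 at -0.50 and SRSF3 at -0.56. HNRNPA1L2 and SNRPE were already called at 2 h against the control.

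HNRNPU, also known as scaffold attachment factor A, and HNRNPM had TE above the median at every time, and were chosen after their values were seen. The same held for HNRNPA0, HNRNPAB, HNRNPL, HNRNPUL2, SRSF2, SNRPB and SF3A2. HNRNPU had TE changes of 0.50, 0.26, 0.20 and 0.48 ± 0.038, with RNA of 177, 177, 157, 126 and 112 FPKM and density of 120.4, 176, 144, 98.9 and 102 FPKM. HNRNPM had 0.30, 0.21, 0.23 and 0.42 ± 0.044. Neither passed 1.5-fold at any time. RNA of both was lower at 19 h than in the control, while density at 19 h was 0.845 (HNRNPU) and 0.835 (HNRNPM) of the control value, before centring.

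**Figure D4:**
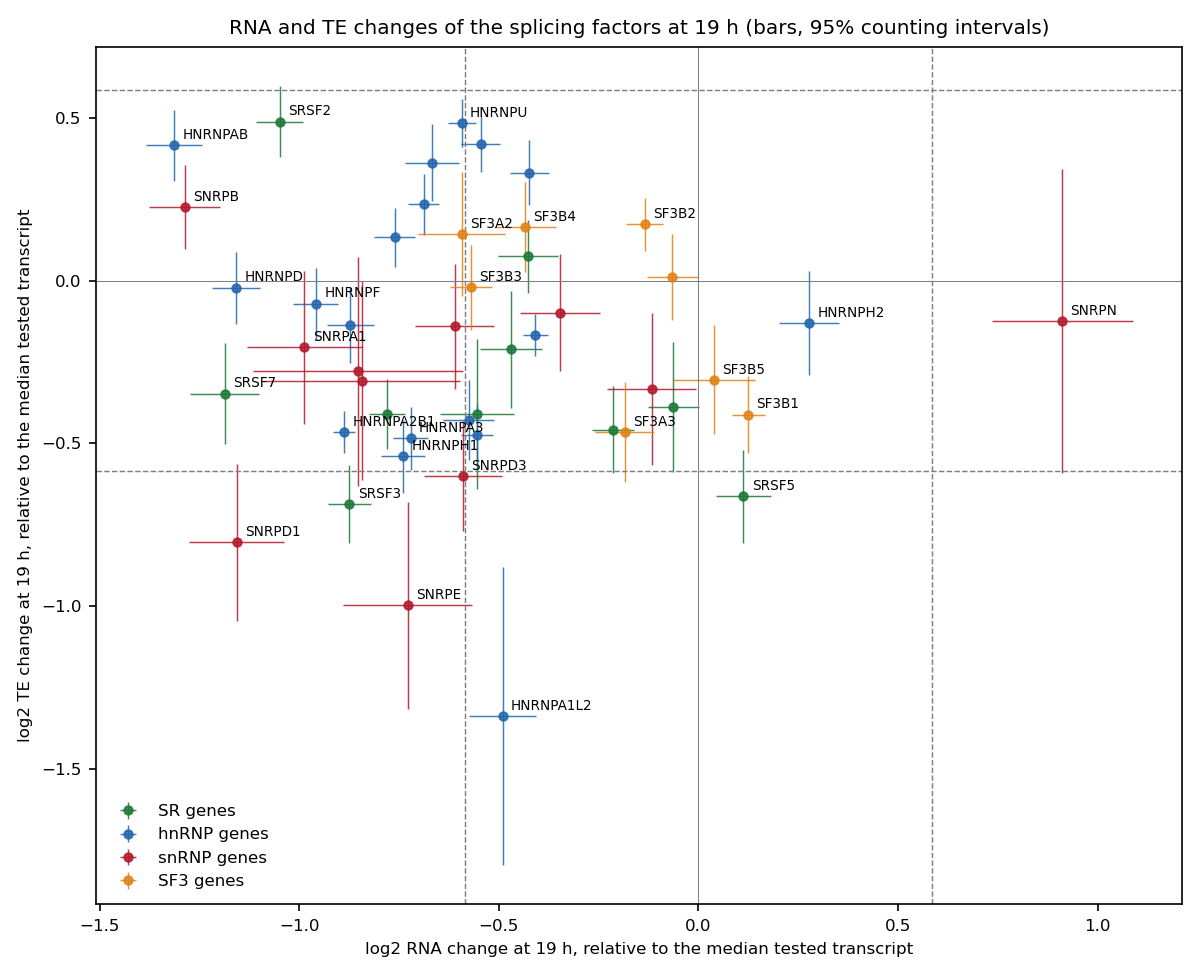
RNA change against TE change at 19 h for each member, both on log2 scales relative to the median tested transcript, with 95% counting intervals as bars and dashed lines at 1.5-fold. Most points lie left of zero on the RNA axis, while TE changes spread from -1.34 (HNRNPA1L2) to 0.49 (SRSF2).

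Cytosolic ribosomal protein genes served as a comparison set for TE. Their mRNAs carry the 5' terminal oligopyrimidine (TOP) element, a C at the start followed by a run of pyrimidines, by which mTOR controls their translation. The 75 tested ribosomal protein genes had a median TE change of -1.01 at 6 h and -1.25 at 19 h, with median RNA changes of 0.24 and 0.03. The 47 splicing factors had median TE changes of -0.16 and -0.21 and median RNA changes of -0.47 and -0.59 at these times. A C at the RefSeq start followed by at least 4 pyrimidines was found for 4 of 44 members (9.09% of genes), for 8.77% of all tested genes, for 5.14% of all RefSeq genes and for 73.8% of 61 matched ribosomal protein genes. The 15 bases on either side of the start are shown for those 4 members, and for SNRPE and SRSF3, whose TE fell most in their families among members with a RefSeq start. Capitals mark the unbroken pyrimidine run that begins with C at the start.
HNRNPA0, chr5:137754349-137754378, minus strand: cgcgcgttcagcggcCTCTTTgtgtggtgc
SRSF9, chr12:120469734-120469763, minus strand: tttgcctccgccgacCCCTTCgcttccgct
SF3A2, chr19:2236809-2236838, plus strand: tttgccccggaagtgCTTTCTTTgcccgcc
SNRPA, chr19:40751188-40751217, plus strand: aatctctcgagagttCTCTCCgcacgcggg
SNRPE, chr1:203861832-203861861, plus strand: ggctaccaagactggaagaaagcgcgggta
SRSF3, chr6:36594347-36594376, plus strand: ggagaaggcggtggtCCgccatttcgtgga

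TE changes at 19 h of the members with a pyrimidine start were 0.36 (HNRNPA0), 0.07 (SRSF9), 0.14 (SF3A2) and -0.14 (SNRPA), none past 1.5-fold. SNRPE and SRSF3, at -0.998 and -0.69, had no such start in RefSeq.

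Levels of density against RNA differed widely between members in the control. Density over RNA was 6.33 for SNRPF and 4.3 for SNRPG, which encode small Sm proteins, and 0.204 for HNRNPA1L2, 0.38 for SRSF11 and 0.461 for SF3B1. The family medians were 0.85 for SR, 1.02 for hnRNP, 1.77 for snRNP and 1.13 for SF3 genes, against 0.83 for all tested transcripts. Both assays appear to be divided by the same whole transcript length, so a transcript with long untranslated parts has a lower ratio. This length cancels in the changes. In the study's sample list, however, the share of Ribo-Seq reads in coding sequence differs between the Nutlin-3a libraries and the control beside them. Their share of reads in the main reading frame is also lower than in its other Ribo-Seq libraries. Changes may thus depend on untranslated parts too, if reads there were counted, which was not tested.

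Other genes of the splicing machinery were examined in 5 lists. Of 114 tested genes, 29 fell in RNA at 19 h (25.4%, against 12.7% of all tested transcripts) and 1 rose (against 9.14%), with a median change of -0.34. The lists below are read against the same shares. The LSm proteins, many of which form the ring of U6 or of the cytoplasmic decay complex, had 5 of 8 genes lower and a median of -0.90. The list was split, since the other 3 lay above the median of all tested transcripts, with LSM10 highest at 0.39. LSM6 and LSM5 fell most, with changes of -1.35 ± 0.17 and -1.23 ± 0.094. In the list of other hnRNP and splicing regulators 9 of 27 genes fell, with a median of -0.45. PTBP1, the polypyrimidine tract binding protein, fell from 152 FPKM RNA in the control to 68.8 FPKM at 19 h, a change of -1.07 ± 0.023.

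Of the core spliceosome proteins 10 of 46 genes were lower, with a median of -0.28. PPIH, a cyclophilin of the U4/U6 particle, fell from 34.1 to 10.5 FPKM RNA, and PRPF4, its partner, from 15.7 to 6.2 FPKM. Of the 13 snRNP assembly genes GEMIN4, DDX20 and GEMIN5 fell and GEMIN8 rose, by 0.75 ± 0.15 in a gene of 3.67 FPKM in the control. GEMIN4, a subunit of the SMN complex, had 16.3, 14.3, 8.28, 6.06 and 4.5 FPKM RNA, a change of -1.79 ± 0.079 at 19 h. Of the 20 SR-related proteins and SR kinases 2 fell (10%, near the background), RNPS1 and TRA2B, and the median was -0.09.

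In TE 20 of the 114 genes fell at 19 h (17.5%, against 12.8% of all tested transcripts) and 3 rose (against 11.2%), with a median of -0.19. The lowest was GEMIN6 at -2.17 ± 0.34, with 16.4 FPKM density in the control and 2.51 FPKM at 19 h on RNA of 8.68 and 6.26 FPKM. BCAS2 (-1.31 ± 0.17), HNRPDL (-1.22 ± 0.080), LSM3 (-1.20 ± 0.18), U2SURP (-1.06), TRA2A (-1.03 ± 0.11), PNN (-0.74), RBM3 (-0.74) and TGS1 (-0.70) were the others lowest in their lists. The 3 that rose were SRRM2 (0.97 ± 0.050), GEMIN4 (0.74 ± 0.15) and SNRNP200 (0.61 ± 0.052), the first and last of which encode very large proteins. For SRRM2 density was 15.4 FPKM in the control, 29.9 FPKM at 2 h, 16 FPKM at 4 h, 24.2 FPKM at 6 h and 25.5 FPKM at 19 h, so that the 4 h library stood with the control.

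**Figure D5:**
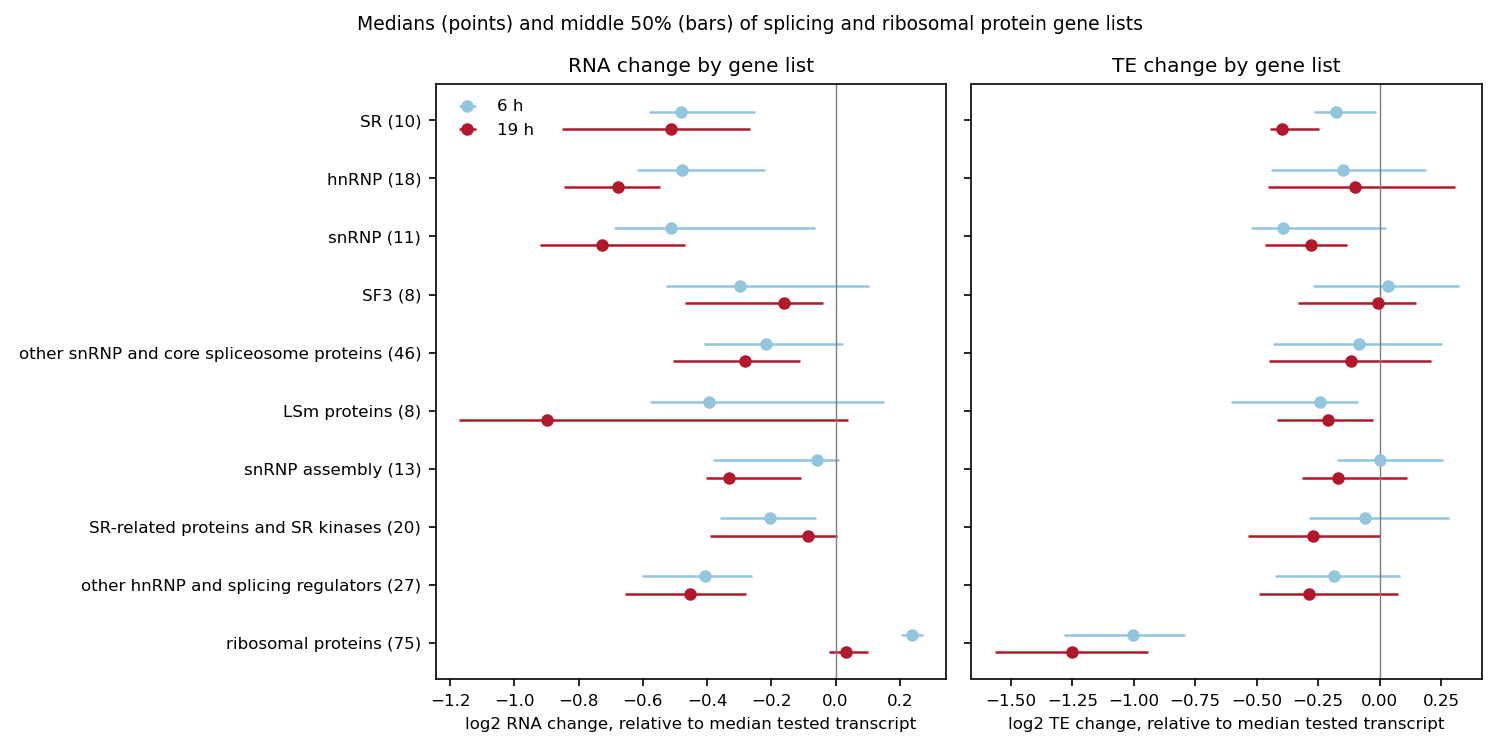
Median log2 change (points) and middle 50% of genes (bars) of RNA (left) and TE (right) at 6 h and 19 h, by gene list, relative to the median tested transcript, with the number of genes in parentheses. The LSm list has the lowest RNA median at 19 h, at -0.90, with a bar that reaches up to 0.04. The ribosomal protein list has the lowest TE median at 19 h, at -1.25.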

How the data were processed

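The authors mapped RNA-Seq and Ribo-Seq reads with Bowtie (hg19 per the labels) to 1 transcript per gene, kept uniquely mapped reads, and deposited FPKM for 5 libraries of each assay. The set of values read here as RNA-Seq is named for both assays, so its assay was inferred. Histone transcripts, a class that mostly lacks poly(A), served as a check. All 28 in both sets were higher in the control of the set named for Ribo-Seq alone. The study states that Ribo-Seq reads were taken in coding sequence, while the deposited values step by the same transcript length in both assays. Library totals and reads per transcript were recovered here from these steps. The protocol does not mark strand, and isoforms are not separated. Each group is 1 library, so changes were compared with 1.5-fold and with counting error only, in place of the tests across replicates. Transcripts needed 5 FPKM in 1 or more libraries of each assay, and values under 1 FPKM were set to 1. Values in every library were given, per family, for the member with the highest control RNA level, the 3 with the largest RNA change and the 3 with the largest TE change at 19 h, and any member called the same way at 3 or more times. From the other lists the 2 genes with the largest rise and fall past 1.5-fold were named. 1 gene that this rule names is not reported here. Members, lists and rules were chosen with earlier results of these data known. Promoter letters came from RefSeq (GRCh38.p14). Alternatives were another baseline, filter, centring, floor and cut-off. Scripts used Python 3.11.15, numpy 2.4.6 and pandas 2.3.3, and were tested on simulated data.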

Additional observations from a re-analysis of the deposited data

How the results depend on the processing

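Of 118 alternative values of the family medians and counts, 97 stayed, 20 moved and 1 reversed, and for single genes 275 stayed and 45 moved. Counts stayed when within 1.5 times, and single genes when within their 95% counting interval. Family medians stayed when they shifted by less than a 95% counting span set by the members' median counting SE. That span is not an interval for the family median itself. The reversed one was the TE count at 4 h, with 2 members lower when centred and 2 higher without centring. Median RNA changes at 19 h became -0.58 for SR genes without centring and without a filter, and -0.63 with a mean of at least 20 FPKM. For hnRNP genes the median became -0.74 without centring and without a filter. With the 2 h library as baseline the snRNP RNA median was -0.57 and the SR TE median -0.25, and 2 members passed 1.5-fold in TE at 19 h and 0 at 4 h. The cut-off in local SDs left 1, 6 and 5 members in RNA at 4, 6 and 19 h, and 3 and 2 in TE at 6 and 19 h. TE counts at 2 h became 1 without centring, without a filter, with a mean of at least 20 FPKM or with the length trend removed, and at 4 h became 1 without a filter or with that mean. The snRNP TE median at 19 h, -0.28, became -0.10 with the 2 h baseline and -0.06 with the length trend removed. The cause was not tested. No paired analysis was possible because each group is 1 library, and no library could be left out. Low Ribo-Seq counts limit HNRNPA1L2 and SNRPN most.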
